A study of Homo sapiens with 4 samples.

Results

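The Krüppel-like factor (KLF) family was followed across naïve and primed human embryonic stem cells through 10 of its genes: KLF2, KLF3, KLF4, KLF5, KLF6, KLF8, KLF11, KLF13, KLF16 and KLF17. The members were chosen by symbol, with earlier results of these data known. Transcript identifiers had been matched to an annotation of the human genome. They are 10 of 62218 genes with a matched transcript, and they hold 48 of the 244825 transcripts counted. The value of a gene was the count of its transcript with the largest mean count, because transcripts of a gene share alignments.

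The data were 4 Nanopore cDNA libraries from wild-type H1 cells, an established human embryonic stem cell line. Both naïve libraries came from H1 cells converted from the primed state and kept in the FINE culture condition, and both primed libraries came from H1 cells kept in mTeSR. No source used here says whether the replicates of a state were separate cultures, so p-values measure the spread between these libraries, which may be technical. Each state is represented by 1 cell line. By the paper's methods, the states also differed in oxygen level, matrix coating and passaging reagent. The state cannot be told apart from the medium or from these conditions. Total counts were 153647482 and 161548901 in naïve rep1 and rep2, and 129276054 and 132927036 in primed rep1 and rep2. An alignment was counted for every transcript whose span it overlapped, introns included and without regard to strand, so these totals count alignments several times and intronic genes add to their host.

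KLF proteins carry 3 C2H2 zinc fingers at the C-terminus and bind GC-rich boxes and CACCC boxes in promoters and enhancers. Their N-termini differ and set their partners: KLF2, KLF4, KLF5, KLF6 and KLF17 are known mainly as activators, KLF3 and KLF8 recruit the corepressor CtBP, and KLF11, KLF13 and KLF16 recruit the corepressor SIN3A. KLF2, KLF4 and KLF5 are known for sustaining naïve pluripotency in the mouse, and KLF17 is known as a marker of the human naïve state.

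Since members bind such boxes, stretches of 250 bases upstream of their RefSeq start sites were searched for the GC box (GGGCGG or CCGCCC) and the CACCC box (CACCC or GGGTG) on both strands. RefSeq on GRCh38.p14 gave 14 stretches for 9 of the 10 members, with KLF3 not matched. A GC box was found in 12 of the 14 stretches and a CACCC box in 8. Over all 35116 stretches of this length, 42.6% held a GC box and 54.7% a CACCC box. Some members gave several stretches, of which some for KLF8 overlap, so the 14 are not separate units. GC content ran from 40.8% (a KLF5 stretch) to 86.4% (KLF16), with a median of 58% over all stretches, and was not matched. The boxes can overlap each other, and a match describes letters only. For the 4 tested members with the largest fold between the states (KLF17 without a pseudogene inside it, described with its counts), and for KLF13 as a member that was not called, the stretch just upstream of the canonical transcript is shown. Capitals mark the boxes and each runs 5′ to 3′ on the strand of its gene.
KLF5, chr13:73058755-73059004, plus strand: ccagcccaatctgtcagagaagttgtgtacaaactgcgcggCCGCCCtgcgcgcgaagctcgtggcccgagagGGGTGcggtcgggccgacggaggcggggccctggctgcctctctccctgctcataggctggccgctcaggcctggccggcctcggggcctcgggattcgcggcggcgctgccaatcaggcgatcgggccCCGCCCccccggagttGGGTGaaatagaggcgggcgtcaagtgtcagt
KLF8, chrX:56232106-56232355, plus strand: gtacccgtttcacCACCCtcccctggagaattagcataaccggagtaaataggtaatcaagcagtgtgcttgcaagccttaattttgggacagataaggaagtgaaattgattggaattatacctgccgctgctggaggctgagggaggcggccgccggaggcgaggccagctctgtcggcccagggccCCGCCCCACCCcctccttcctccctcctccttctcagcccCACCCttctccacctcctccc
KLF17, chr1:44118571-44118820, plus strand: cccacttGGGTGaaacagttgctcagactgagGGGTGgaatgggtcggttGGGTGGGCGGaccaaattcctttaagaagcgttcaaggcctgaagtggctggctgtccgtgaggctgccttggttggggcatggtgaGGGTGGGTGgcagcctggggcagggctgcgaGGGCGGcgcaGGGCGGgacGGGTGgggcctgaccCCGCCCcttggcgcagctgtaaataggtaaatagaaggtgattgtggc
KLF4, chr9:107489770-107490019, minus strand: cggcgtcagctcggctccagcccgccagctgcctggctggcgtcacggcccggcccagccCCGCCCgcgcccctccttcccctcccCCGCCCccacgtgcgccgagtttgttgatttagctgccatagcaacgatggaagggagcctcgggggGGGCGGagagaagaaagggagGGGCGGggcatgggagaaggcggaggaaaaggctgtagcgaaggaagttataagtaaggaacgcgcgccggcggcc
KLF13, chr15:31326585-31326834, plus strand: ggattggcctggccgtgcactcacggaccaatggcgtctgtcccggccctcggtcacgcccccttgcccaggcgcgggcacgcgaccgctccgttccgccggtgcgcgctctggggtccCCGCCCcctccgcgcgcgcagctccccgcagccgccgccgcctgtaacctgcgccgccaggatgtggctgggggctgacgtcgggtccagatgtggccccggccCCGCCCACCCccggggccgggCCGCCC
The KLF5 stretch held 2 GC boxes and 2 CACCC boxes, and the KLF8 stretch held 1 GC box and 3 CACCC boxes. In the KLF17 stretch there were 4 GC boxes and 6 CACCC boxes. The KLF4 stretch had 4 GC boxes and no CACCC box, and that of KLF13 had 3 GC boxes and 1 CACCC box. A further KLF5 stretch, upstream of KLF5-205 (chr13:73054726-73054975), held no GC box and 1 CACCC box. KLF8 has 3 further stretches, with 0 to 2 GC boxes each.

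Marker genes matched the labelled states, and markers of other cell types differed between them too. The level of 6 naïve markers, summed in TMM-scaled CPM, was 947 to 1132 CPM in naïve and 5.19 to 5.58 in primed libraries. That of 7 primed markers was 140 to 145 and 709 to 803, with SFRP2 and THY1 at 0 in naïve libraries. Most of the sum over primed markers came from CD24, at 143 and 137 CPM in naïve and 610 and 527 in primed libraries. A list of 13 trophoblast markers summed to 2958 to 3287 CPM in naïve and 7.55 to 7.77 in primed libraries, with 12 of 13 called higher in naïve cells and VGLL1 at 0 in primed libraries. Most of the naïve sum came from CGA (1551 CPM in naïve rep1) and from CGB3, CGB5 and CGB8. These 3 had close counts (9797, 9344 and 9158 in naïve rep1), and an alignment can count at several places, so they may not be separate measurements. Amnion markers (4 of 5 called higher) summed to 23.0 to 24.6 and 6.04 to 7.14. The 5 fibroblast markers summed to 2.55 to 3.56 and 57.7 to 59.6, but 3 could be tested and 2 were called higher in primed cells. These were the collagen genes COL1A1 (log2 -4.69) and COL1A2 (log2 -5.34). COL3A1 was not called (log2 -0.28), and DCN and LUM had too few counts to be tested. Germ layer markers summed to 4.56 to 5.14 in naïve and 3.03 to 3.33 in primed libraries, but of the 5 of 9 tested 1 was called higher in naïve cells (GATA6, log2 2.03) and 1 higher in primed cells (PAX6, log2 -1.66), with a median of -0.69. Much of the count of some markers lay on a gene nested in their span. The share was 92.0% for DNMT3L and THY1, 86.3% for GABRP, 78% for KRT7, 68.7% for SALL2 and 65.0% for TFAP2A. Fewer cells of a type and less RNA per cell cannot be told apart in such libraries, and the part of such cells in the KLF differences given here was not tested.

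Most of the members were higher in naïve cells. By edgeR's quasi-likelihood test with TMM scaling and Benjamini-Hochberg adjustment over 27633 genes, 9 members could be tested, 7 were higher in naïve cells, none was higher in primed cells and 2 were not called. KLF5, KLF8, KLF4, KLF6 and KLF11 rose by at least 4-fold in naïve cells, a size that 1993 of the 27633 genes reached. The background was high: 70% of all genes tested were called, 32.6% as higher in naïve and 37.4% as higher in primed cells. The median log2 fold change (naïve over primed throughout) was 2.36 over the 9 members tested and -0.08 over all genes. The members were chosen with earlier results of these data known, so these values do not speak for the KLF family. Of the 5 other KLF genes that could be tested, 1 was higher in naïve and 3 in primed cells.

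**Figure D1:**
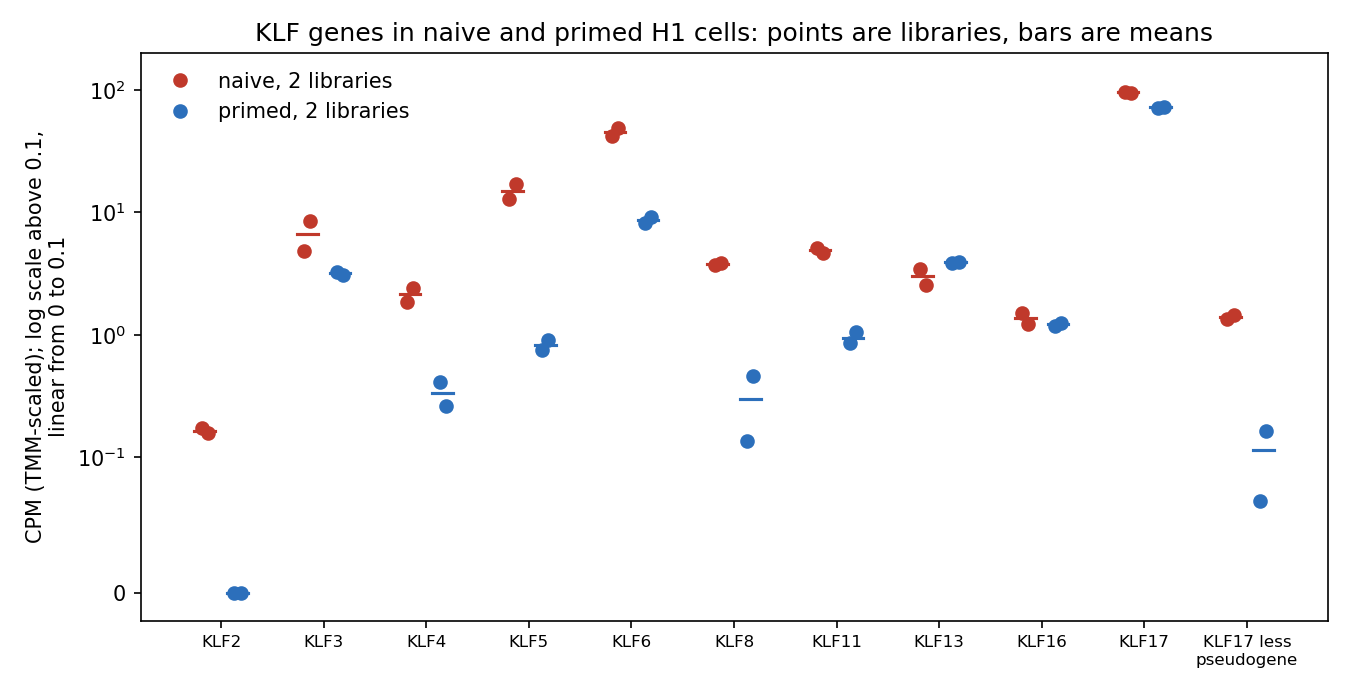
Level of each KLF gene in every library, in CPM (counts scaled to a common library total, here with TMM factors), on an axis that is logarithmic above 0.1 and linear from 0 to 0.1; points are single libraries and bars their means, with naïve libraries on the left and primed on the right. Both naïve libraries lay above both primed libraries for every member except KLF13, where both lay below, and KLF16, where the libraries overlapped. KLF2 rests on 4 counts in each naïve library. The share of all genes whose libraries separate was not counted, and 70% of all genes tested were called. Nearly all of the KLF17 count lies on a pseudogene in its first intron, and the last position gives KLF17 without it.

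Among the activators that could be tested, KLF5 changed most when KLF17 was taken with or without its pseudogene. KLF5, a factor of proliferating epithelia and early embryonic cells, was counted 295 and 434 times in the naïve libraries and 22 and 28 times in the primed libraries (KLF5-205, a protein-coding transcript at chr13:73054976-73077541, plus strand). The groups did not overlap, and the fold change was 17.8 (log2 4.16 ± 0.24 SE, adjusted p = 1.13e-19 by edgeR). Nearly all of these counts lay in the span that KLF5-205 shares with the canonical transcript KLF5-201, which held 294 and 434 against 22 and 28. Only 1 alignment, in naïve rep1, was counted for the longer span alone.

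KLF6, a factor induced by injury and growth signals, had the largest counts of the members after KLF17. KLF6-206 (chr10:3775996-3785209, minus strand, protein-coding) had 961 and 1251 counts in naïve libraries and 240 and 279 in primed libraries. KLF6 was thus 5.26-fold higher in naïve cells, with no overlap between the states (log2 2.39 ± 0.16 SE, adjusted p = 4.17e-17 by edgeR).

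KLF4, one of the reprogramming factors, was much less abundant. It was counted 43 and 62 times in naïve and 12 and 8 times in primed libraries (KLF4-201, chr9:107484852-107489769, minus strand, protein-coding). The naïve libraries were both higher, by 6.39-fold (log2 2.68 ± 0.37 SE, adjusted p = 3.04e-08 by edgeR).

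KLF2, which acts with KLF4 and KLF5 in mouse naïve cells, was close to the limit of detection. KLF2-201 (chr19:16324826-16328685, plus strand, protein-coding) had 4 counts in each naïve library and 0 in each primed library. A count of 0 allows up to 3 counts in a library. The observed naïve mean was 1.65 times that limit on the TMM-scaled CPM scale. The naïve counts of 4 were taken as exact in this ratio, so it is not a lower bound on the fold. With so few counts KLF2 missed the minimum of 10 counts in 2 libraries and was left out of the main test. Without that filter KLF2 was called higher in naïve cells (log2 5.21, adjusted p = 0.0145 by edgeR), a fitted value that depends on the prior count and bounds nothing.

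KLF17 gave nearly equal counts in the states, but nearly all of them lay on a pseudogene inside its first intron. KLF17-201 (chr1:44118821-44135140, plus strand, protein-coding) was counted 2200 and 2423 times in naïve libraries and 2083 and 2236 times in primed libraries. Of these, 2169 and 2386 in naïve and 2081 and 2231 in primed libraries lay on ENSG00000233514, a processed pseudogene of 360 bases on the minus strand (chr1:44122153-44122512). The pseudogene held between 98.5% and 99.9% of the KLF17 count of a library.

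Outside the pseudogene, 31 and 37 counts were left for KLF17 in naïve libraries, against 2 and 5 in primed libraries. In this remainder, naïve cells were 11.6-fold higher (log2 3.54 ± 0.49 SE, adjusted p = 2.85e-08 by edgeR, in a setting chosen after the data were seen). With the pseudogene included, the fold was 1.32 (log2 0.41 ± 0.14 SE, adjusted p = 0.0107 by edgeR). This call was lost without either primed library, at 0.22 without primed rep1 and 0.26 without primed rep2 (adjusted p = 0.296 and 0.209), and with library size in place of TMM the value was -0.23 (adjusted p = 0.111).

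The pseudogene aligned over all its 360 bases, at 98.3% identity, to a transcript of SNRPD1, which encodes a core protein of spliceosomal snRNPs. SNRPD1 itself was counted 3896 and 4079 times in naïve and 3787 and 4164 times in primed libraries (log2 0.31 ± 0.14 SE). Counts on the pseudogene were between 53.6% and 58.5% of those on SNRPD1 in each library. Whether reads of SNRPD1 make up the pseudogene's count was not tested. The part of KLF17-201 outside the shorter KLF17-202, which leaves out the pseudogene and the other shared span, had 13 and 10 counts in naïve and 1 and 2 in primed libraries.

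**Figure D2:**
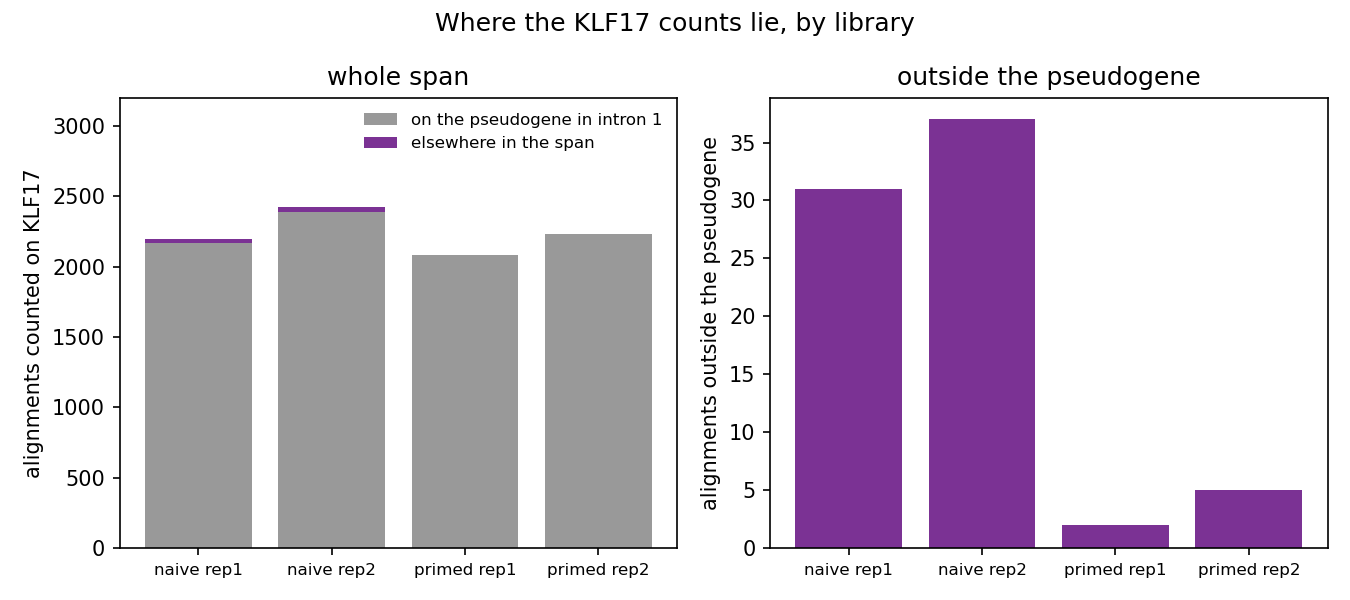
Alignments counted on KLF17 in each library, as bars from 0: left, the whole span divided into the pseudogene in intron 1 and the rest; right, the rest on its own axis. The left bars range from 2083 to 2423, while the right bars stand at 31 and 37 in the naïve libraries and at 2 and 5 in the primed ones.

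Among the members, KLF3 and KLF8, which recruit CtBP, were called higher in naïve cells, KLF8 by far the more. KLF genes outside the members were not grouped by corepressor. Of the 5 that could be tested, 1 was higher in naïve and 3 in primed cells, KLF12 by the most (log2 -4.78). KLF8-204 (chrX:56232356-56291531, plus strand, protein-coding) had 86 and 98 counts in naïve and 4 and 14 in primed libraries. The fold was 12.5 (log2 3.64 ± 0.36 SE, adjusted p = 4.98e-12 by edgeR). The primed libraries differed from each other, and the log2 fold change ranged from 2.87 without primed rep1 to 4.59 without primed rep2, called in both.

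KLF3, a repressor of erythroid and adipocyte genes, was counted 111 and 218 times in naïve and 96 and 94 times in primed libraries (KLF3-201, chr4:38664199-38701517, plus strand, protein-coding). The naïve libraries were higher but stood apart from each other, and the fold was 2.12 (log2 1.08 ± 0.23 SE, adjusted p = 5.61e-05 by edgeR). The log2 value was 0.66 without naïve rep2 and 1.49 without naïve rep1, and the call was lost with library size in place of TMM (0.45, adjusted p = 0.113). An antisense gene, KLF3-AS1, shares 728 bases with the start of KLF3 and had 40 and 100 counts in naïve and 47 and 64 in primed libraries. Without strand, these cannot be divided between the genes, and at least 71, 118, 49 and 30 counts lay on KLF3 alone, in the same order of libraries.

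The members that recruit SIN3A did not move together. KLF11, a TGF-beta-inducible factor, had 118 and 119 counts in naïve and 25 and 32 in primed libraries (KLF11-201, chr2:10043550-10054836, plus strand, protein-coding). It was 5.14-fold higher in naïve cells (log2 2.36 ± 0.27 SE, adjusted p = 2.49e-10 by edgeR). A long non-coding RNA on the other strand, ENSG00000271787, overlaps the last 416 bases and had 32, 55, 16 and 13 counts, so that at least 86, 64, 9 and 19 lay on KLF11 alone.

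KLF13, a regulator of T cell and heart genes, had 80 and 65 counts in naïve and 113 and 121 in primed libraries. The transcript taken, KLF13-206 (chr15:31327567-31435586, plus strand), has a long span but no defined coding sequence. The difference was not called, at a log2 fold change of -0.38 ± 0.24 SE (adjusted p = 0.150 by edgeR). With library size in place of TMM, KLF13 was called higher in primed cells (-1.02, adjusted p = 0.000538). The canonical coding transcript KLF13-201 had 59 and 45 counts in naïve and 82 and 102 in primed libraries.

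KLF16, first described on dopamine receptor promoters, overlapped between the states at 35 and 31 counts in naïve and 35 and 38 in primed libraries (KLF16-201, chr19:1852399-1863579, minus strand, protein-coding). Its log2 fold change was 0.16 ± 0.32 SE (adjusted p = 0.653 by edgeR), and -0.47 with library size in place of TMM. A long non-coding RNA on the plus strand, ENSG00000267125, covers 1224 bases at the 3′ end and held 31, 29, 35 and 37 counts. At least 4, 2, 0 and 1 counts then lay on KLF16 alone, so the count of KLF16 cannot be told apart from that of its overlapping neighbour.

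The choice of scaling shifted every gene. The TMM factors were 0.779 and 0.824 in naïve and 1.25 and 1.24 in primed libraries. With library size alone, the median over all genes moved from -0.08 to -0.72 on the log2 scale, with 16.3% of genes called higher in naïve and 56.2% higher in primed cells. Under it, 5 members (KLF4, KLF5, KLF6, KLF8 and KLF11) were called higher in naïve cells and 1, KLF13, higher in primed cells. A change of scaling multiplies each library by a single factor, so distances from the median of all genes are nearly fixed in advance. They were 4.24 for KLF5, 0.48 for KLF17 and -0.30 for KLF13 under both scalings, which is no check on the members.

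**Figure D3:**
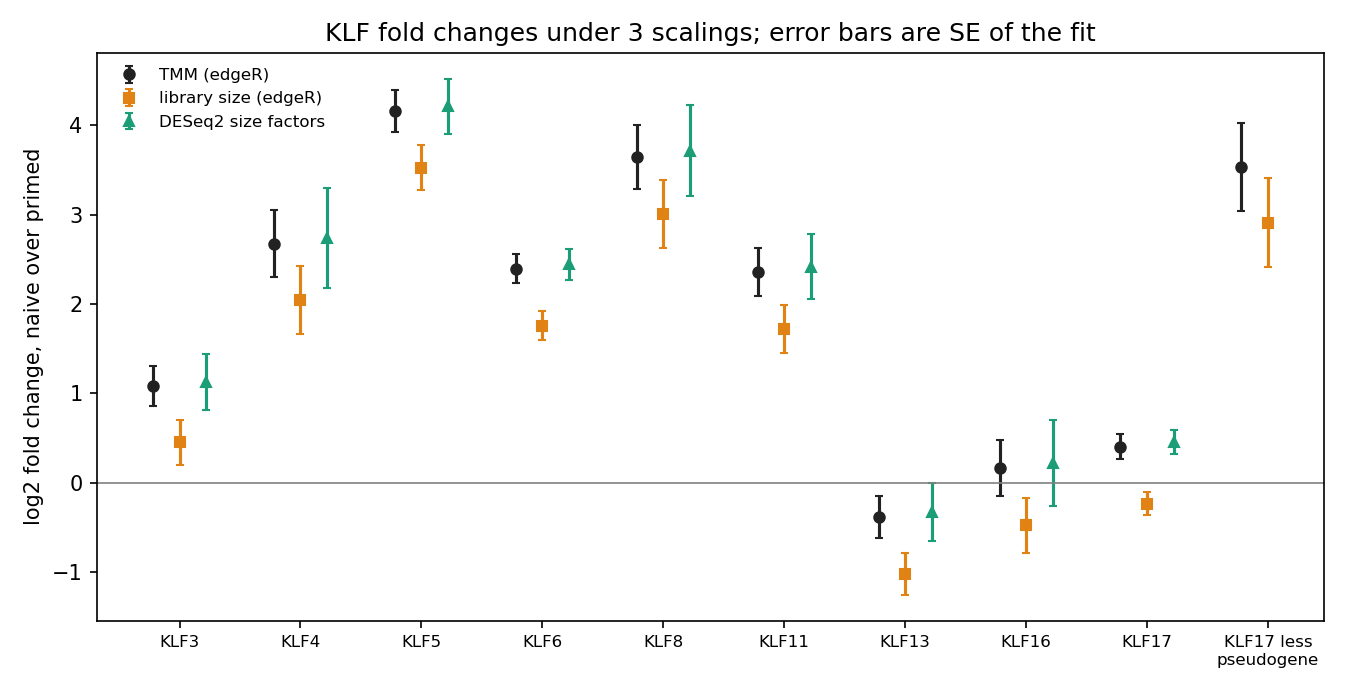
Log2 fold change of each tested KLF gene, naïve over primed, under TMM (circles), library size (squares) and DESeq2 size factors (triangles), with error bars for the SE of each fit. KLF4, KLF5, KLF6, KLF8 and KLF11 lie above 1 under all 3 scalings, whereas KLF16 and KLF17 lie below 0 under library size, and KLF17 without its pseudogene lies at 3.54 under TMM.

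Levels were compared between members per kilobase of exon, on the TMM-scaled CPM scale, with canonical transcripts and with KLF17 taken without its pseudogene. Long-read alignments counted over whole spans need not grow with exonic length, so the order in either state depends on this division. Without it, KLF8 (mean 3.79 CPM) stood above KLF4 (2.15 CPM) in naïve cells, the reverse of the order given here. In naïve cells KLF6 stood first at a mean of 9.89 CPM per kilobase, KLF5 followed at 4.45, and KLF11 and KLF3 were next at 1.21 and 1.20 with overlapping replicates. KLF4 stood at 0.73, and KLF16, KLF17, KLF8 and KLF13 lay between 0.32 and 0.47, of which KLF16 overlapped both KLF17 and KLF8. KLF2 was last at 0.059. Counts that KLF11, KLF3 and KLF16 share with overlapping genes are included here, and without them these members had at least 0.77, 0.69 and 0.043, so their places are not settled.

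In primed cells KLF6 was again first, at 1.88 CPM per kilobase, but the order behind it differed. KLF3 stood second at 0.57, ahead of KLF13 at 0.45 and KLF16 at 0.42, which overlapped. KLF5 and KLF11 overlapped at 0.25 and 0.24, KLF4 was at 0.11, and KLF17 and KLF8 overlapped at 0.037 and 0.033. Without the shared counts, KLF3, KLF11 and KLF16 had at least 0.24, 0.11 and 0.0056 in primed cells, so the places of KLF3 and KLF16 above KLF5, and that of KLF3 above KLF13, rest on counts that cannot be assigned to them. KLF5, second only to KLF6 in naïve cells, stood below KLF13 in primed cells, and KLF2 had no count there.

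No isoform of a member passed the test of isoform usage, which compares each isoform with the other isoforms of its gene. Of the 48 transcripts, 45 in 9 members were tested by edgeR's diffSpliceDGE, and 0 were called at an adjusted p under 0.05 with a change in isoform fraction (dIF) over 0.1. At an unadjusted p under 0.05 there were 2, KLF11-202 and KLF13-202, and no other tool was run. Over all isoforms tested, 869 of 159577 were called, or 0.545%.

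The smallest adjusted p among them was 0.136, for KLF11-202 (chr2:10042849-10047770, protein-coding), a short isoform that starts upstream of the others. Its isoform fraction, by counts per exonic length, was 24.9% in naïve and 46.4% in primed cells, a dIF of -0.21. Spans of KLF11 isoforms share alignments and dividing by length favours short isoforms, so this fraction is not a share of KLF11 molecules. KLF11-202 had 49 and 50 counts in naïve and 22 and 23 in primed libraries, against 46, 49, 5 and 8 for KLF11-204, which shares most of its span. The difference between these isoforms was 3 and 1 counts in naïve and 17 and 15 in primed libraries, where the gene as a whole was lower.

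Several members have isoforms with the very counts of the one taken, as KLF4-206, KLF6-207, KLF16-202 and KLF16-204 do. The isoform next in count among those that differed held at least 92.7% of the count in every library for KLF6 (KLF6-203) and at least 95.3% for KLF4 (KLF4-204). It held between 68.1% and 95.9% for KLF3 (KLF3-203), between 75.0% and 96.9% for KLF8 (KLF8-202) and between 69.2% and 84.3% for KLF13 (KLF13-201). KLF17-202 held at least 99.4% of the count of KLF17-201, since both enclose the pseudogene. For KLF16 it was KLF16-203, with 5, 2, 2 and 5 counts, and KLF2-202 had 4 and 3 in naïve and 0 in both primed libraries.

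The other KLF genes and the related SP genes, which share the 3 zinc fingers, moved in both directions. Of 17 such genes 12 could be tested, with 5 higher in naïve cells, 4 higher in primed cells and 3 not called. Of all genes, 32.6% and 37.4% were called in these directions. Of the 5 KLF genes among the 12, 1 was higher in naïve and 3 in primed cells (median log2 -0.77). Of the 7 SP genes, 4 were higher in naïve and 1 in primed cells (median log2 0.85). With library size in place of TMM, 3 of the 12 were higher in naïve and 6 in primed cells (16.3% and 56.2% of all genes). The largest difference was in KLF12, a repressor of the AP-2 alpha gene, with 3 and 9 counts in naïve and 179 and 237 in primed libraries (log2 -4.78 ± 0.34 SE, adjusted p = 2.96e-16 by edgeR). SP4 (39 and 45 against 240 and 288 counts, log2 -2.34) and KLF10 (98 and 133 against 245 and 242, log2 -0.77) were also higher in primed cells. KLF15 was called too (9 and 4 against 10 and 26, log2 -1.14, adjusted p = 0.0475 by edgeR). Its libraries overlapped, at 0.39 and 0.16 TMM-scaled CPM in naïve and 0.34 and 0.85 in primed libraries.

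On the naïve side, SP6 was highest in fold, with 163 and 173 counts against 22 and 28 (log2 3.05 ± 0.26 SE, adjusted p = 5.83e-14 by edgeR). KLF9 had 37 and 41 counts in naïve and 17 and 11 in primed libraries (log2 1.77). SP1, the founding factor of the SP group, had 726 and 929 against 437 and 517 (log2 1.10), and SP3 had 403 and 583 against 317 and 358 (log2 0.85, not called with library size, adjusted p = 0.274). KLF7, which was not called, stood at a log2 fold change of -0.30.

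**Figure D4:**
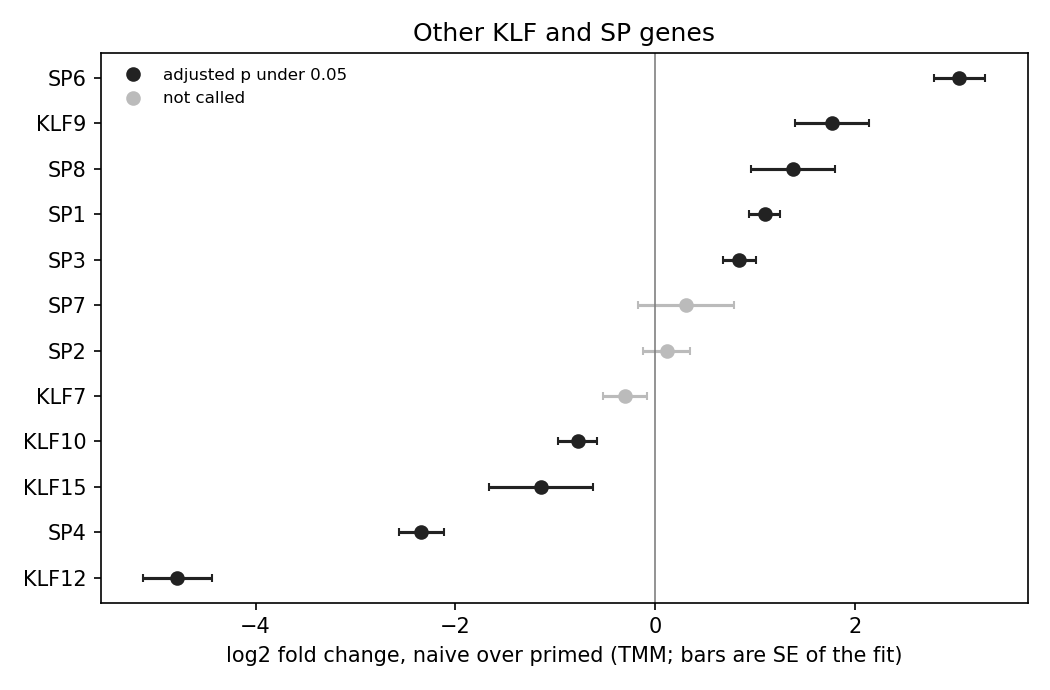
Log2 fold change, naïve over primed, of the 12 other KLF and SP genes that could be tested, with bars for the SE of the edgeR fit under TMM; dark points passed an adjusted p under 0.05 and grey points did not. SP6 lies furthest to the naïve side at 3.05 and KLF12 furthest to the primed side at -4.78.

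Genes for cofactors and regulators of KLF proteins also moved both ways. Of 18 tested, 7 were higher in naïve and 4 in primed cells, and with library size 2 and 11, a shift that the calls over all genes showed too (32.6% and 37.4% with TMM, 16.3% and 56.2% with library size). The corepressors that KLF3 and KLF8 recruit were lower in naïve cells under both scalings: CTBP2 had 438 and 555 counts against 1422 and 1600 (log2 -1.30, adjusted p = 4.22e-10 by edgeR, with 27.0% of its count on a gene nested in it), and CTBP1 had 63 and 61 against 140 and 130 (log2 -0.81). The deacetylase HDAC3 (log2 -0.43) and FBXW7, which marks KLF proteins for degradation (log2 -0.71, with 35.1% of its count on a nested gene), were lower too. SIN3B, a SIN3 corepressor, was higher in naïve cells under both scalings, with 793 and 914 counts against 263 and 396 (log2 1.68, adjusted p = 4.63e-12 by edgeR). SIN3A (log2 0.39), CREBBP (log2 0.38) and OTUD7B (log2 1.03) were called higher under TMM only, and the first 2 turned to -0.25 and -0.26 with library size.

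Among 16 genes of the circuit in which KLF proteins act in naïve pluripotency, 8 were higher in naïve cells, 5 higher in primed cells and 3 not called, and the split with library size was 7 and 8, beside the same shares of all genes. TFCP2L1, a factor downstream of LIF signalling, had 596 and 611 counts in naïve and 74 and 83 in primed libraries (log2 3.25). NANOG (log2 1.62) and the receptor gene LIFR (log2 2.40) were higher as well. IL6ST, the co-receptor of LIFR, was called at 0.61, but 91.2% of its count lay on a nested gene and it stood at -0.03 with library size. SOX2 (log2 -2.38), SALL4 (log2 -1.37), PRDM14 (log2 -0.86) and NR5A2 (log2 -0.87) were higher in primed cells.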

How the data were processed

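The authors aligned Nanopore cDNA reads to GRCh38 with minimap2 and deposited raw counts of alignments per transcript, from featureCounts 2.0.0 on Ensembl release 105, unnormalized and for each library separately. The recorded command used options that count an alignment at each place and for each span it overlaps. The reads carry no molecular identifiers, so limits on counts of 0 cover counting error only.

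Symbols came from GENCODE release 44, in which 242542 of the 244825 identifiers were found (97.9% of them at the same position), and the 2283 others, with 1.0% of all counts, were not tested. Genes reaching 10 counts in 2 or more libraries were fitted with edgeR 4.0.16 in R 4.3.3, two-sided, with the state as the only term. The replicates of a state were distinct, with a chi-square per degree of freedom of 8.74 (naïve) and 5.53 (primed). A pseudogene was matched to transcripts with blastn 2.17.0. Alternatives were DESeq2 1.42.0, library size, a replicate block, other filters, summed or canonical transcripts, and leaving out each library. The scripts were tested on simulated counts. The members, gene lists and tests were chosen with earlier results of these data known. All members were described; from each gene list, the 4 called genes with the largest mean count in each direction were named, and further genes were named after their values were seen.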

Additional observations from a re-analysis of the deposited data

How the results depend on the processing

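KLF4, KLF5, KLF6, KLF8 and KLF11 kept their direction and their call under every alternative in which they could be tested (KLF4 and KLF16 did not reach the minimum of 50 counts). KLF3 lost its call with library size (0.45, alone and with the KLF17 pseudogene removed), and KLF13 was then called higher in primed cells (-1.02), which made the number of members called higher in primed cells 1 in place of 0 in both of those fits. KLF16, not called in any fit, changed sign to -0.47 with library size in both fits and to -0.030 without primed replicate 1, with a range from -0.030 to 0.38 over the libraries left out in turn. KLF17 turned to -0.23 with library size, and with each library left out its log2 fold change ranged from 0.22 to 0.47. These fits leave 1 library in a state, which is assumed to vary like those of the other state. Fewer of all genes were called with each library left out than in the main fit. A lower number of calls in a gene list under these fits, the cofactor list included, cannot be told apart from this general loss.

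Members called higher in naïve cells numbered between 5 and 8 over the alternatives (8 with KLF2, tested without a count filter) and between 6 and 7 with each library left out. For the cofactor list the number called was 11, fell to 7 without primed replicate 1 and was 8 to 9 without each of the others. Of all isoforms, 869 were called, 560 with at least 50 counts, 1870 and 290 at dIF thresholds of 0.05 and 0.2, and 362 to 458 with each library left out; no isoform of a member was called in any of these. With the replicate block, 7 members were called higher in naïve cells, 19688 genes were called in place of 19337, 776 isoforms were called, and no member's call changed. The deviations of same-numbered libraries correlated at 0.0407 over 27633 genes, so the numbers were not treated as pairs. Depth limited KLF2, and shared spans limited KLF3, KLF11, KLF16 and KLF17.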

Other observations

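The annotated pseudogenes of KLF2 had more counts in primed than in naïve libraries. KLF2P1, KLF2P2, KLF2P3 and KLF2P4 lie on chromosome 2, inside the spans of FAR2P1, FAR2P2, FAR2P3 and FAR2P4. KLF2P1 had 4 and 6 counts in naïve and 92 and 93 in primed libraries, and its log2 fold change was -3.87 (naïve over primed). KLF2P2 had 9 and 6 against 95 and 84 (log2 -3.25), KLF2P3 had 9 and 7 against 99 and 81 (log2 -3.17), and KLF2P4 had 2 and 5 against 74 and 81 (log2 -4.12). The host FAR2P1 had 9 and 10 counts in naïve and 149 and 161 in primed libraries, and the other 3 hosts had between 3 and 11 in naïve and between 152 and 176 in primed libraries. An alignment can count for several of these near-identical copies, so the 4 values are not separate measurements. KLF2 itself had 0 counts in both primed libraries. The divergent transcript KLF2-DT had 10 and 16 counts in naïve and 28 and 38 in primed libraries (log2 -1.03 ± 0.39 SE, adjusted p = 0.0167 by edgeR). KLF3P1, KLF3P2, KLF4P1, KLF8P1 and KLF17P1 had at most 9 counts in any library.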
